A study of Solanum lycopersicum with 12 samples.

Results

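The strigolactone synthesis genes of tomato were followed as 5 loci, chosen by identifier: D27 (Solyc09g065750), CCD7 (Solyc01g090660), CCD8 (Solyc08g066650), MAX1 (Solyc08g062950) and CYP722C (Solyc02g084930). All 5 were found among the 35976 loci of the table, each as 1 row. The files give identifiers without names, so the 5 gene names are those given with the rule that chose the loci. The libraries came from wild-type Solanum lycopersicum under saline irrigation (50 mM NaCl, 5.8 dS per m), a condition that all 4 groups shared. Plants were sprayed on the leaves with the biostimulant PSI-475 at 2.5 mL per L, or with water in the untreated groups, first at 65 days of age, with salinity starting 1 day later, and a second time after 27 days of saline water. Young leaf and root were taken at 127 days, 2 h into the dark. The 4 groups, untreated and treated leaf and untreated and treated root, hold 3 libraries each. No unsalted plants are among these libraries. Nothing in the labels ties a replicate to its own plant, so the p-values reflect spread among libraries that may be technical.

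Strigolactones are carotenoid-derived hormones that plants make mainly in roots. They restrain shoot branching, and when released into soil they stimulate arbuscular mycorrhizal fungi and the germination of parasitic broomrapes and witchweeds; synthesis is known to increase when phosphate is scarce. D27 is a plastid isomerase that acts on beta-carotene at the start of the pathway. CCD7 and CCD8 are carotenoid cleavage dioxygenases that turn its product into carlactone, MAX1 is a cytochrome P450 that oxidises carlactone to carlactonoic acid, and CYP722C is the cytochrome P450 that leads from carlactonoic acid to orobanchol in tomato.

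Levels are given as FPKM (fragments relative to locus length and library total), a scale per length on which different genes can be set side by side. Whole fragments behind each level were recovered from the digits of the values, and the library totals ran from 17108347 to 22993130 fragments. The 3 loci listed as leaf markers, Rubisco small subunits by general knowledge, summed to 8500 to 10500 FPKM in the leaf libraries and to 20.8 to 49.6 FPKM in the root libraries. Of the 2 loci listed as root markers and found in the table, 1 was at 0 in all leaf libraries, at 0.133 to 0.338 FPKM in untreated root and at 2.45 to 3.77 FPKM in treated root. The other did not mark root, at 26.1 to 57.7 FPKM in leaf against 17.1 to 18 FPKM in untreated and 35.2 to 47.1 FPKM in treated root. Both were thus higher in treated than in untreated root without overlap. In bulk tissue, fewer cells of a type and less RNA per cell cannot be told apart.

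Of the loci followed, the first and the last in pathway order moved in opposite directions in treated root. D27 fell from 5.14 ± 0.131 to 0.234 ± 0.0487 FPKM and CYP722C rose from 1.79 ± 0.0191 to 7.9 ± 1.07 FPKM (SD, n = 3 in each group). The loci between them in pathway order were read from few or no fragments. CCD8 reached at most 0.59 FPKM, CCD7 never had more than 3 fragments, and MAX1 was listed at 0 in all 12 libraries. In leaf, CYP722C was the 1 member at a measurable level. Both members tested in root were thus called, 1 lower and 1 higher, where 24.5% of the 18277 loci tested fell, 52% rose and 79.2% did not overlap between the groups. D27 was tested in root only through its level in untreated root, so its call adds no support. In leaf 0 members were called of the 1 tested (limma adjusted p = 0.057, unadjusted p = 0.0194; 1 was called with limma-voom), where 13.5% of 18405 loci rose, 18.8% fell and 47.9% did not overlap.

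**Figure D1:**
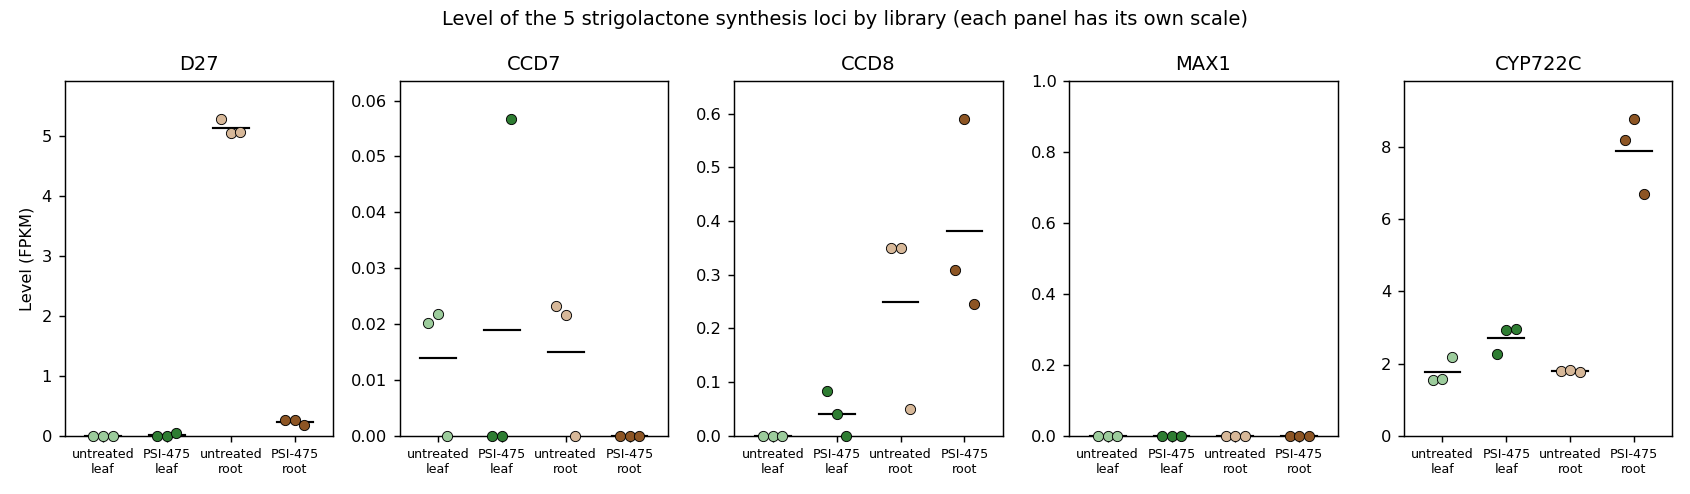
FPKM of D27, CCD7, CCD8, MAX1 and CYP722C in the 12 libraries, 1 panel per locus with its own linear axis; points are libraries and bars are group means (n = 3). D27 was high in untreated root alone, at 5.06 to 5.29 FPKM, and CYP722C was highest in treated root, at 6.7 to 8.78 FPKM.

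D27, the isomerase that opens the pathway, had 5.29, 5.06 and 5.07 FPKM in the 3 untreated root libraries. In treated root it had 0.256, 0.267 and 0.178 FPKM. The lowest untreated library lay well above the highest treated one, and the untreated values differed little among themselves. The treated values rested on 5, 5 and 4 fragments and the untreated ones on 99, 102 and 103, so the level left in treated root is known only roughly. Per library total, the fragments were 22.3-fold fewer in treated root (95% interval 13.1 to 41.3, exact conditional binomial, counting error only). Adding 1 FPKM before taking log2 shrinks changes at such low levels. On that log2(FPKM + 1) scale the change was -2.32 (SE 0.102, limma adjusted p = 2.55e-07). Over the root libraries D27 reached the mean of 1 FPKM asked of tested loci only through untreated root. Its call in root therefore adds no support beyond the levels and fragments themselves.

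In leaf, D27 was at 0 in all 3 untreated libraries. It was also at 0 in 2 of the 3 treated leaf libraries, and the third held 1 fragment (0.0435 FPKM). Untreated root exceeded untreated leaf by 2.62 on the log2(FPKM + 1) scale (SE 0.0888, limma adjusted p = 1.76e-11). D27 reached the mean of 1 FPKM asked of tested loci only through untreated root. It therefore had to differ in this test, and its call adds no support. D27 was the 1 of 2 tested members called between the untreated tissues, where 33.1% of 19324 loci were higher in root, 48.1% higher in leaf and 82% did not overlap. Counted as fragments, the 304 of untreated root against 0 in untreated leaf put root at least 107-fold higher, with a floor of 3 fragments over the leaf group. After treatment the tissues stood closer, with a log2 difference of 0.28 (SE 0.0888, limma adjusted p = 0.0114). That difference lay 0.12 above the median of all loci, and 44.1% of loci were at least as far in that direction. Neither treated group reached 1 FPKM, so D27 was in this test only through untreated root, a group outside the contrast. Treated root still held 14 fragments against 1 in treated leaf, a 16.7-fold ratio with a counting interval of 2.53 to 704.

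CYP722C, the enzyme that leads to orobanchol, had 1.79, 1.81 and 1.78 FPKM in untreated root. It had 8.21, 8.78 and 6.7 FPKM in treated root, so every treated library was above every untreated one. The fragments behind these levels were 76, 83 and 82 against 364, 374 and 343. Per library total the treated fragments were 4.37-fold more (95% interval 3.79 to 5.04, counting error only), and the log2(FPKM + 1) change was 1.66 (SE 0.108, limma adjusted p = 2.3e-06).

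Of the 2 members tested between the untreated tissues, CYP722C was the one whose levels did not separate them. Untreated leaf had 1.54, 1.57 and 2.17 FPKM, a range that holds the untreated root values. The log2 difference of untreated root from untreated leaf was 0.02 (SE 0.124, limma adjusted p = 0.86), and the ratio of fragments was 1.02 (95% interval 0.848 to 1.22, counting error only). Treated leaf had 2.27, 2.92 and 2.97 FPKM, above each untreated leaf library by a margin that was small between 2.17 and 2.27. This leaf difference, 0.43 on the log2 scale (SE 0.149), missed the threshold with a limma adjusted p of 0.057. Over the alternatives tried its adjusted p ran from 0.0154 to 0.176 and was under 0.05 in 5 of 15, among them the fit without untreated leaf replicate 3 (0.54, limma adjusted p = 0.0252). Treated root exceeded treated leaf by 1.26 (SE 0.124, limma adjusted p = 9.91e-07), and each treated root library was above each leaf library. Both tested members were called higher in root among treated tissues, where 44.9% of loci were higher in root, 33.4% higher in leaf and 81% did not overlap. D27 was in that test only through untreated root, so its call there says little.

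CCD8, which makes carlactone, was low but present in every root library. It had 0.349, 0.349 and 0.0495 FPKM in untreated root and 0.309, 0.59 and 0.246 FPKM in treated root. The groups overlapped, and untreated replicate 3, with 2 fragments against 13 and 14 in the other two, was the lowest of the 6. Summed fragments were 29 in untreated and 45 in treated root, a ratio per library total of 1.51 (95% interval 0.927 to 2.5, counting error only). Without untreated root replicate 3 that ratio was 1.07. With no minimum level, the log2(FPKM + 1) change was 0.15 (SE 0.134, limma adjusted p = 0.391), so a change of CCD8 in root was not detectable with these fragments and this spread between libraries. In untreated leaf CCD8 had 0 fragments in all 3 libraries, and in treated leaf it had 4, 2 and 0. Root was above leaf in each treatment without overlap. Of loci that passed the filter, 82% did not overlap between the untreated tissues and 81% between the treated tissues. CCD8 did not reach the mean of 1 FPKM asked of tested loci. Without that filter, the root excess was 0.31 in untreated plants (limma adjusted p = 0.0222) and 0.4 in treated plants (limma adjusted p = 0.00602), both on the log2(FPKM + 1) scale. Most loci were called in these unfiltered comparisons, 18654 of 27820 between untreated and 17679 between treated tissues, so these calls say little about CCD8.

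CCD7, which acts between D27 and CCD8, was close to absent from both tissues. Untreated root held 1, 1 and 0 fragments and treated root 0 in each library. Untreated leaf held 1, 1 and 0 fragments and treated leaf 0, 0 and 3. These 7 libraries at 0 and 5 libraries with 1 to 3 fragments allow no comparison. MAX1 was listed at 0 in all 12 libraries, as were 8156 of the 35976 loci. Of the 28 loci of the wider pathway described below that are in the table, 2 were also listed at 0 throughout, 1 of them in carotene synthesis, so for MAX1 no more can be said than that it was listed at 0.

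The order of the members' levels in root therefore differed between the treatments. In untreated root D27 came first, followed by CYP722C, CCD8 and CCD7, with no overlap between neighbours in that order. In treated root CYP722C came first, and CCD8 (0.246 to 0.59 FPKM) and D27 (0.178 to 0.267 FPKM) overlapped behind it. The summed level of the 5 loci was 7.2 ± 0.283 FPKM in untreated and 8.51 ± 1.28 FPKM in treated root (SD, n = 3), with overlapping libraries. D27 made up 71.5% ± 1.87 of that sum in untreated root and 2.73% ± 0.217 in treated root (SD, n = 3). CYP722C made up 24.9% ± 0.888 and 92.9% ± 1.58 (SD, n = 3). The level of D27 divided by that of CYP722C was 2.96, 2.79 and 2.86 in the untreated root libraries and 0.0312, 0.0304 and 0.0265 in the treated ones. Both leaf groups consisted almost wholly of CYP722C, at 99.1% ± 0.772 and 97.3% ± 1.19 of a sum of 1.77 and 2.8 FPKM.

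**Figure D2:**
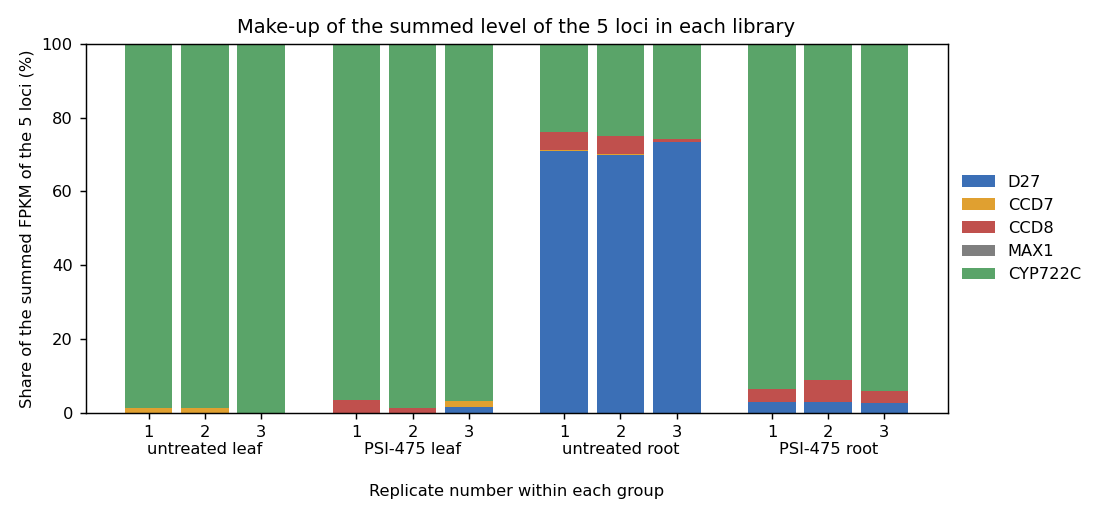
Share of each locus in the summed FPKM of the 5 loci (%), 1 stacked bar per library, with replicate numbers under the bars. D27 takes 69.9% to 73.5% of the sum in untreated root and 2.49% to 2.92% in treated root, while CYP722C takes over 90% in every treated root library and in every leaf library.

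Since 52% of loci rose and 24.5% fell in root, a call by itself says little about a member, and its size was set against all loci. Median-of-ratios scaling made this 36.1% and 34.8%. The median change over all loci was 0.28, so D27 lay at -2.59 and CYP722C at 1.39 relative to it. A fall at least as large as that of D27 was found at 383 loci, or 2.1% of those tested, and a rise at least as large as that of CYP722C at 542, or 2.97%. On the log2(FPKM + 1) scale the starting level limits how far a locus can fall, so the rank of D27 also reflects its level in untreated root. With median-of-ratios scaling, which moved the median of all root loci to 0.022, D27 lay at -2.49 and CYP722C at 1.42 relative to the median.

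D27 is one of 1620 loci called higher in untreated root than in untreated leaf by at least 2 on the log2(FPKM + 1) scale. Of these, 70.4% fell in treated root. That grouping and the change in root share the untreated root libraries. Their median log2 change was -1.12. Within them, 312 loci, or 19.3%, fell at least as far as D27 on the log2(FPKM + 1) scale, where the starting level limits the fall. In treated root the leaf marker loci summed to 33.7 to 49.6 FPKM against 20.8 to 25.8 FPKM in untreated root; of the 3, 1 was higher without overlap (31.9 to 43.1 against 17.3 to 20 FPKM), the other two overlapped, and none was at 0 throughout a group. Of the 2 loci listed as root markers, the 1 at 0 in leaf was at 0.133 to 0.338 FPKM in untreated and 2.45 to 3.77 FPKM in treated root. The other, which did not mark root, was at 17.1 to 18 and 35.2 to 47.1 FPKM. CYP722C in treated root exceeded its own level in every leaf library. The part of the tissue make-up that such marker loci reflect in the fall of D27 and the rise of CYP722C was not tested.

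**Figure D3:**
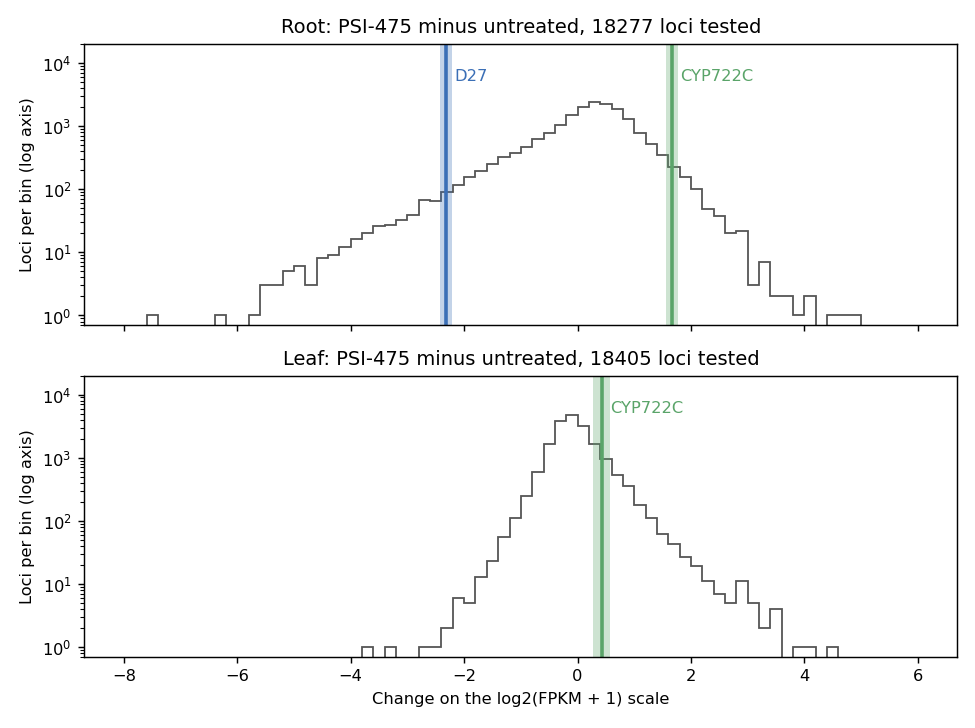
Number of loci per 0.2-wide bin of the log2(FPKM + 1) change between treated and untreated libraries, in root (18277 loci) and leaf (18405 loci), on a log axis; coloured lines are the members that were tested and bands are 1 SE. D27 (-2.32) and CYP722C (1.66) stand in opposite flanks of the root distribution, and CYP722C in leaf (0.43) lies closer to the bulk.

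In leaf, CYP722C was among the 47.9% of loci whose groups did not overlap and was not called. Its change exceeded the median of all loci, -0.09, by 0.52, and 11.6% of loci rose at least as far. Both tested members passed the interaction test of root against leaf effects. Among all loci in that test, where 46.6% of 19324 loci had a higher and 20.8% a lower effect in root, the effect on D27 was lower in root than in leaf by -2.34 (SE 0.126, limma adjusted p = 1.29e-08). The effect on CYP722C was higher in root by 1.23 (SE 0.175, limma adjusted p = 5.27e-05). D27 had 0 and 1 fragments in the leaf groups and entered this test through untreated root, so its value restates the root fall and shows nothing of a leaf response.

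The carotenoid route that supplies the pathway was examined as 4 lists of loci compiled from general knowledge of tomato, described by counts because the files do not name the loci. Of 8 loci for plastid isoprenoid supply, which makes the precursor of all carotenoids, 7 were tested in root; 6 rose and 1 fell. Their median log2 change was 0.65, against 0.28 over all loci. Of 8 loci for carotene synthesis, which leads to the substrate of D27, 7 were in the table and 5 were tested in root. All 5 rose, by 0.19 to 0.95, with a median of 0.45. Of 9 loci for other uses of carotenoids (xanthophylls, abscisic acid and other cleavage products), 6 were tested in root, where 4 rose and 1 fell, and the median was 0.35. Of 4 loci for strigolactone perception and the branching response, 1 passed the filter in root and rose by 1.37.

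Over the 4 lists, 16 of 19 loci rose in root and 2 fell, where 52% of all loci rose and 24.5% fell. With median-of-ratios scaling 10 rose and 3 fell, where 36.1% of all loci rose and 34.8% fell, and 15 of 19 changes were positive. The rise of carotene synthesis then held for 3 of 5 loci, and 1 of the other uses rose and 2 fell. No tested carotene synthesis locus was called lower in treated root, as deposited or under the 3 other scalings. With only 5 loci tested, and 24.5% of all loci called lower as deposited, this count says little about the list or its relation to D27. In leaf, where 13.5% of all loci rose and 18.8% fell, 6 of 7 isoprenoid supply loci rose, with a median of 0.35 against -0.09 over all loci. The 5 tested carotene synthesis loci were split there, with 2 that rose, 2 that fell and changes from -1.04 to 0.3. Of 8 loci for other uses 4 rose and 1 fell in leaf, the largest by 2 on the log2 scale. Of 2 tested perception and response loci, 1 rose.

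**Figure D4:**
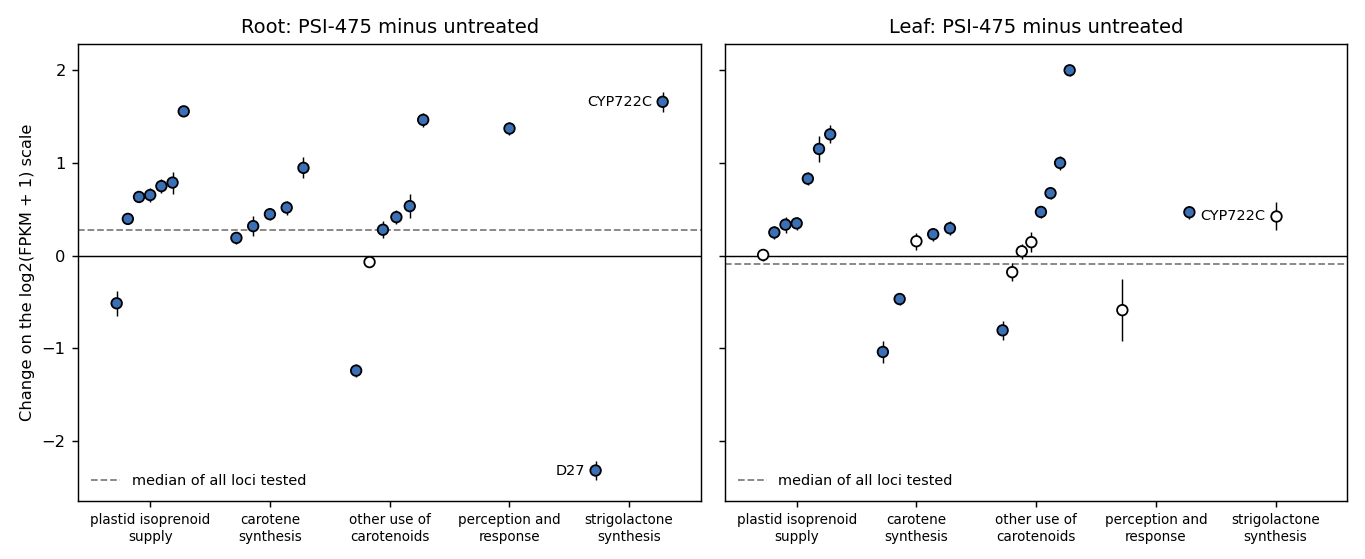
Change on the log2(FPKM + 1) scale between treated and untreated libraries in root and leaf for each tested locus of the 4 lists and for the tested strigolactone synthesis loci; error bars are 1 SE, filled points passed the limma threshold, and the dashed line is the median of all loci tested (0.28 in root, -0.09 in leaf). In root D27 lies below every other locus shown and CYP722C above every other.

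Likeness of pattern was measured by Pearson correlation of log2(FPKM + 1) over the 12 libraries, which share tissue and treatment, among 18608 loci of the tomato locus scheme. By the planned rule, the loci most like the mean of standardised D27 and CYP722C were Solyc08g074680.2 (r = 0.9882) and Solyc05g052640.3 (r = 0.9858). Since D27 and CYP722C moved apart (r = -0.323 between them), that mean mainly separates root from leaf, and each was also taken alone, a choice made after the values were seen. The 2 loci most like D27 were Solyc05g051610.2 and Solyc04g081650.3 (r = 0.9984 for each). Solyc05g051610.2 went from 7.72 ± 0.516 to 0.222 ± 0.051 FPKM in root and was at 0.0312 and 0.0332 FPKM in untreated and treated leaf. Solyc04g081650.3 went from 27.5 ± 0.669 to 1.38 ± 0.262 FPKM in root and was at 0.714 and 0.634 FPKM in leaf. D27 was high in untreated root alone, so these r values mainly reflect that group. The locus most like CYP722C was Solyc05g012110.3 (r = 0.9904), with 109 ± 1.31 FPKM in untreated and 342 ± 22.7 FPKM in treated root (SD, n = 3).

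The loci next to the members in identifier order were also read. Of these 10 neighbours, 6 were tested in root, where 4 rose and 1 fell, beside 52% and 24.5% of all loci. The neighbour after D27 was at 125 FPKM in untreated and 145 FPKM in treated root, a log2 change of 0.21 (limma adjusted p = 0.00383), while the neighbour before D27 was at 0.585 and 0.0526 FPKM and was not tested. The neighbour before CYP722C rose in root by 0.39 (limma adjusted p = 4.26e-05), and the one after it was listed at 0. The 1 fall was that of Solyc08g066660.1, the locus after CCD8, from 13.6 to 0.65 FPKM in root, a log2 change of -3.14 (limma adjusted p = 2.29e-07). The locus before CCD8 rose by 0.49 (limma adjusted p = 0.0133). Where neighbours overlap, reads of one could be counted for the other, and the sources used here do not state how strand was handled in counting.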

How the data were processed

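RNA was taken from 30 mg of tissue per sample, young leaf or root, for 12 libraries built with a NEBNext Ultra kit, per the labels' protocols. Of tools, fastp, featureCounts and DESeq2 appear in the submitters' processing notes, with no versions. The aligner, build, gene models and strandedness of counting were not given in the sources used here. The deposited values are FPKM, made by the authors for each library. All 12 columns were matched to samples by name.

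Library totals, lengths and whole fragments were recovered from the FPKM digits. In every library 100% of values above 0 were whole within 0.001, in part by construction, and a factor common to all counts of a locus would be lost. Pairs of replicates differed beyond sampling noise (chi-square over degrees of freedom 2.21 to 17.4), so all were kept.

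Each fit kept loci averaging 1 FPKM or more over its libraries. Values as log2(FPKM + 1) were tested with limma 3.58.1 (R 4.3.3), trended variance, 2-sided, with Benjamini-Hochberg adjustment over all loci kept and a threshold of 0.05. Leaf and root effects used 6 libraries each; the interaction and tissue contrasts used 12. Of the 5 members, 2 passed in root and over 12 libraries and 1 in leaf. A member that passed through the group where it is high had to differ, so the number passing supports nothing. The procedure was also run on simulated fragments, with the same spread setting for all loci and groups, and no result here rests on that run. Intervals of fragment ratios used scipy 1.17.1, and figures matplotlib 3.10.9.

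The named loci are the members, their neighbours in identifier order (printed by identifier for the 1 that fell in root) and the loci most like them. Members and lists were chosen with earlier results of these data known, and the lists' loci come from general knowledge. Of the 5 member identifiers, 0 were found in the RefSeq gene table for SLM_r2.1, so no sequence or coordinate is given. Alternatives varied the pseudocount (0.1), filter, scaling, trend, voom on fragments, replicate block, the set of libraries fitted, and left out each replicate in turn.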

Additional observations from a re-analysis of the deposited data

Results flagged for a closer look

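Both members that could be tested passed the interaction test of root against leaf effects, in which 46.6% of 19324 loci had a higher and 20.8% a lower effect in root. For D27 the effect in root minus that in leaf was -2.34 (limma adjusted p = 1.29e-08), with all 3 treated root libraries below all 3 untreated ones and 0 and 1 fragments in the leaf groups, so the value restates the fall in root and shows nothing of a leaf response. For CYP722C it was 1.23 (limma adjusted p = 5.27e-05). Its treated libraries were above its untreated ones in both tissues, where 79.2% of loci in root and 47.9% in leaf did not overlap. The leaf change of CYP722C was not called (limma adjusted p = 0.057).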

How the results depend on the processing

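In root, D27 and CYP722C kept their direction and their call in all 15 alternatives each. Wherever the filter was used, D27 was tested only through untreated root, so its calls add no support. D27 ran from -4.35 to -2.28 and CYP722C from 1.44 to 2.11 on the log2 scale. The largest sizes came with voom or the smaller pseudocount, which compress low levels less. In leaf the number of members called went from 0 to 1 (CYP722C) with median-of-ratios scaling, with no mean-variance trend, with voom on recovered fragments and with all 12 libraries in the fit, and was 0 to 1 when single libraries were left out. With no filter, which let CCD8 enter, the number went from 1 to 2 between untreated tissues and from 2 to 3 between treated tissues. Of the 27820 loci then tested, 18654 and 17679 were called. Leaving out single libraries gave 0 to 1 between untreated tissues, 1 to 2 between treated tissues and 1 to 2 in the interaction. The lower numbers came without untreated root replicate 1, where the mean of D27 went from 1.35 to 0.989 FPKM, under the filter, so D27 was not tested. The difference of CYP722C between untreated tissues, not called, was -0.03 without untreated leaf replicate 1 and -0.02 without untreated leaf replicate 2, against 0.02, within a range of -0.03 to 0.13 over single libraries left out.

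Treated and untreated groups share replicate numbers 1 to 3. With these as a replicate block, 2 members were called in root, 0 in leaf, 2 in the interaction, 1 between untreated and 2 between treated tissues, as without it. Deviations of same-numbered treated and untreated libraries correlated at -0.237, 0.114 and -0.105 in leaf and at -0.009, 0.005 and 0.043 in root. With 3 libraries per group, these values cannot show whether same-numbered libraries were paired. Deviations of leaf and root libraries with the same number were not compared. Depth limits what can be said of CCD7, of CCD8 and of D27 in treated root, where 14 fragments in all were counted.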
